A study of Homo sapiens with 15 samples.

Results

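The D-type cyclins, the kinases CDK4 and CDK6 that they switch on, the inhibitors that bind these kinases and their substrate RB1 were followed in multiple myeloma (MM) cells grown with and without bone marrow stromal cells. The 10 genes were chosen by symbol, as CCND1, CCND2, CCND3, CDK4, CDK6, CDKN1A, CDKN1B, CDKN2C, CDKN2D and RB1. All 10 were found in the 2 deposited expression tables, each of which holds the same 20468 genes. RNA-Seq was run on the established human MM lines MM.1S and RPMI8226 after 48 h in 3 conditions: alone (MONO), in the upper chamber of a transwell above a stromal layer (TSW), or in the lower chamber in contact with that layer (CO). The stromal layer was the established human line HS5, which in TSW and CO lay in the lower chamber under MM cells of the same line. MM cells were sorted as CD90- CD38+ before RNA was extracted, and the study's methods describe a trypsin step for cocultured cells. MM.1S had 3 libraries and RPMI8226 had 2 libraries per condition, 15 in all, none of them given a drug. Each line stands for a single tumour, and HS5 is a single stromal line, so neither spans the range of patients. TSW against MONO asks what soluble factors change, CO against MONO asks what the whole coculture changes, and CO against TSW asks what contact adds. By the study's methods, coculture wells also held more cells and medium than MONO wells, and the trypsin step is described for cocultured cells only. CO libraries also held stromal transcripts, as given below. The design cannot tell these differences apart from soluble factors or contact. Both comparisons against MONO share the MONO libraries. The labels do not say that replicates are separate cultures, so each p-value measures only the spread between these samples.

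Paired fragments counted per library, recovered from the deposited values, ranged from 9008909 in MM.1S MONO replicate 1 to 19050583 in MM.1S MONO replicate 2. In RPMI8226 they ranged from 12479636 in MONO replicate 1 to 18788698 in CO replicate 2. MM.1S MONO replicate 1 stood apart: over the genes tested its median absolute log2 difference from the other MONO replicates was 0.25 and 0.29, while those 2 differed by 0.13. Fold changes of the tested members in MM.1S against MONO are therefore also given without that library. Levels are RPKM, read counts scaled by exon length and by the mapped reads of the library, which allows genes of different length to be compared within a library. The 2 tables were normalized separately, so tests of a fold change were run within a line.

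Of 12 plasma cell markers, all 12 were above 0 in every library except the MM.1S TSW libraries, where 11 were, and JCHAIN was the most abundant in each library. CD38, on which the cells were sorted, had an RPKM of 38.4 to 65.0 in MM.1S libraries. In RPMI8226 it was 16.0 and 16.0 in MONO, 49.6 and 42.0 in TSW, and 52.2 and 53.7 in CO. The B cell marker MS4A1 was at 0 in all 15 libraries. Of 38 stromal markers, 16 to 22 were above 0 in MM.1S MONO and TSW libraries, and 36, 36 and 37 in the 3 CO libraries. Their summed RPKM in MM.1S was 27.8, 30.9 and 31.1 in MONO, 18.5, 19.7 and 19.4 in TSW, and 217, 234 and 198 in CO, with MMP1 the most abundant in CO. In RPMI8226, 18 to 22 stromal markers were above 0 in MONO and TSW libraries and 36 in each CO library. FN1 dominated their sum in RPMI8226 and was itself high in MONO, with a mean RPKM of 4150, against 1820 in TSW and 2088 in CO. With FN1 the sum in RPMI8226 was 4026 and 4346 in MONO, 1707 and 1991 in TSW, and 2179 and 2413 in CO. The full sum was thus lower in CO than in MONO in that line, unlike in MM.1S. Without FN1 the sum in RPMI8226 was 35.8 and 36.0 in MONO, 28.9 and 29.4 in TSW, and 172 and 244 in CO. COL1A2 and COL3A1 were at 0 in every MONO and TSW library of both lines. COL1A2 reached an RPKM of 10.8, 13.4 and 10.2 in the MM.1S CO libraries, and of 4.05 and 5.85 in the RPMI8226 CO libraries. THY1, which encodes the CD90 used to remove stromal cells, was at 0.570, 0.489 and 0.453 in MM.1S CO and at 0 to 0.0629 in MONO. In RPMI8226 it was at 0.0767 and 0.111 in CO and at 0.0669 and 0.0282 in MONO, a small difference. By COL1A2 and COL3A1, stromal transcripts were thus present in sorted CO cells, and POSTN stayed at 0 in all 15 libraries.

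In cells that leave rest, growth signals raise a D-type cyclin, which joins CDK4 or CDK6, and the complex phosphorylates RB1 so that E2F factors are released and S phase genes are transcribed. INK4 proteins bind the kinases and keep the cyclin away, whereas CIP/KIP proteins bind cyclin and kinase together and are best known as inhibitors of CDK2. MM tumours commonly overexpress a D-type cyclin through a translocation or other event, and which cyclin that is divides the disease into groups.

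CCND1 (gene ID 595, chr11:69641156-69654474 on GRCh38) encodes cyclin D1, the D-type cyclin that the t(11;14) translocation places under immunoglobulin control in part of MM. In MM.1S its RPKM was 0.0981, 0.0696 and 0.200 in MONO, 0.0310, 0.0145 and 0.0337 in TSW, and 0.590, 0.634 and 0.575 in CO. In RPMI8226 its RPKM was 13.5 and 11.8 in MONO, 3.66 and 3.72 in TSW, and 3.63 and 4.30 in CO. MM.1S thus held CCND1 near the limit of counting in MONO and TSW, its 3 groups did not overlap, and CO was the highest. In RPMI8226 both MONO libraries were above all TSW and CO libraries, and TSW and CO overlapped.

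The MM.1S values of CCND1 rest on 22 fragments over the 3 MONO libraries, 5 over TSW and 123 over CO, and a mean RPKM under 1 kept it out of the tests in that line. The rate of CCND1 fragments in MM.1S CO was 5.10 times that in MONO, with an exact 95% interval of 3.22 to 8.44. Against TSW the rate in CO was 23.1 times as high (9.65 to 72.6), and the rate in TSW was 0.221 times that in MONO (0.0652 to 0.597). Such intervals, and the detection limits below which a gene at 0 cannot be seen, cover counting error only. The stromal markers were also high in these CO libraries, 36 to 37 of 38 above 0, and their part in the CCND1 level was not tested. In these bulk samples, fewer cells of a type and less RNA per cell cannot be told apart. With no filter on expression limma gave CCND1 in MM.1S a log2 difference of 0.64 between CO and TSW (SE 0.04, adjusted p 4.14e-05), which passed the fold of 1.5, and of 0.51 between CO and MONO (adjusted p 7.31e-05), which did not. Between TSW and MONO it gave -0.13 (adjusted p 0.073), so that difference, seen in the counting interval, was not called.

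Fold changes were fitted by limma to log2(RPKM + 1), a scale on which changes of genes with a low RPKM are understated, for genes whose mean RPKM over the line reached 1. The call needed a fold over 1.5 and an adjusted p under 0.05, and all adjusted p-values are from limma by the Benjamini-Hochberg method over all genes tested. CCND1 in RPMI8226 fell by 1.54 in TSW against MONO (SE 0.10, adjusted p 5.97e-07). It fell by 1.46 in CO against MONO (SE 0.10, adjusted p 5.97e-07). Between CO and TSW its log2 difference was 0.079 (SE 0.10, adjusted p 0.605). The mean RPKM of CCND1 in RPMI8226 stood at 12.7 ± 1.20 (SD) in MONO, 3.69 ± 0.0443 in TSW and 3.97 ± 0.477 in CO. Since CCND1 was tested in RPMI8226 only, whether its response differs between the lines was not tested.

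CCND2 (gene ID 894, chr12:4273762-4305353) encodes cyclin D2, the D-type cyclin found in MM with a MAF translocation, among others. Its RPKM in MM.1S was 228, 277 and 304 in MONO, 389, 379 and 395 in TSW, and 335, 345 and 357 in CO. In RPMI8226 the values were 145 and 147 in MONO, 73.1 and 71.6 in TSW, and 73.1 and 73.4 in CO. The 2 lines went opposite ways: MONO was the lowest group in MM.1S and the highest in RPMI8226, and TSW was above CO in each MM.1S library. No pair of groups overlapped in either line, though TSW and CO in RPMI8226 lay next to each other.

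CCND2 in MM.1S had a log2 fold change of 0.53 in TSW against MONO (SE 0.11, adjusted p 0.00658), short of the fold of 1.5. In CO against MONO it was 0.37 (SE 0.11, adjusted p 0.0331), also short of that fold. The TSW value became a call with quantile normalization (0.66, adjusted p 0.00787) and without MONO replicate 3 (0.62, adjusted p 0.00345), and over all settings its adjusted p ranged from 0.00345 to 0.032. Without MONO replicate 1 the values were 0.42 in TSW and 0.25 in CO. CO against TSW gave -0.16 (SE 0.11, adjusted p 0.998). In RPMI8226 CCND2 fell by 1.001 in TSW against MONO (SE 0.06, adjusted p 3.25e-07). It fell by 0.98 in CO against MONO (SE 0.06, adjusted p 2.64e-07). CO and TSW differed by 0.019 (SE 0.06, adjusted p 0.849). In mean RPKM, CCND2 of RPMI8226 went from 145.7 ± 1.57 in MONO to 72.3 ± 1.04 in TSW and 73.3 ± 0.219 in CO.

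CCND3 (gene ID 896, chr6:41934933-42050035) encodes cyclin D3, which acts in the late maturation of B cells and is also a translocation partner in MM. In MM.1S libraries its RPKM was 22.7, 19.5 and 15.3 in MONO, 18.4, 16.9 and 17.0 in TSW, and 15.3, 17.9 and 15.7 in CO. RPMI8226 had 17.2 and 17.2 in MONO, 19.7 and 20.04 in TSW, and 14.7 and 16.3 in CO. All 3 groups overlapped in MM.1S, and in RPMI8226 TSW was above MONO and MONO above CO. The RPKM of CCND3 thus ran from 15.3 to 22.7 in MM.1S and from 14.7 to 20.04 in RPMI8226, below that of CCND2 in every library.

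No comparison called CCND3. In MM.1S its log2 fold change was -0.11 in TSW against MONO (SE 0.13, adjusted p 0.544), -0.20 in CO against MONO (adjusted p 0.247) and -0.092 in CO against TSW (adjusted p 0.998). Without MONO replicate 1 the first was 0.012 and the second -0.080, so the direction in TSW rests on that library. In RPMI8226 the values were 0.20 in TSW against MONO (SE 0.08, adjusted p 0.0467), below the fold of 1.5. In CO against MONO it was -0.14 (SE 0.08, adjusted p 0.132). Between TSW and CO the value was -0.34 (SE 0.08, adjusted p 0.0113), again below that fold. A p-value that misses the threshold does not show that levels were equal.

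**Figure D1:**
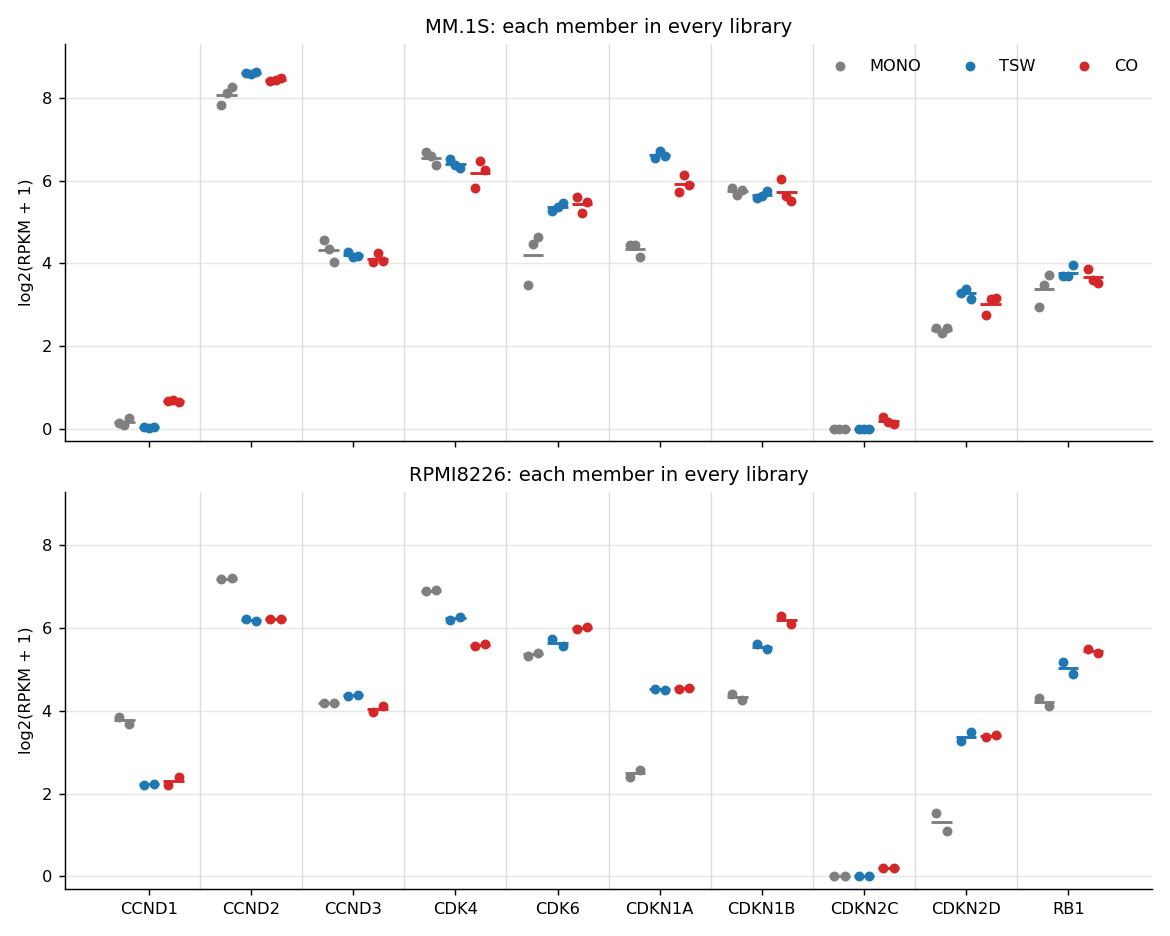
Each point is the log2(RPKM + 1) of 1 gene in 1 library and each bar is the mean of a condition, with MONO in grey, TSW in blue and CO in red, for MM.1S and RPMI8226 in separate panels. CCND2 lies highest of the 10 genes in MM.1S, at an RPKM of 228 to 395, and CDKN2C lowest, at 0 in all MONO and TSW libraries.

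Summed over the 3 genes, D-type cyclin RPKM in MM.1S was 250.4, 297 and 319.6 in MONO, 407, 396 and 412 in TSW, and 351, 364 and 374 in CO. In RPMI8226 the sum was 175 and 176 in MONO, 96.4 and 95.4 in TSW, and 91.5 and 94.0 in CO. The groups did not overlap in either line, and CCND2 supplied most of the sum. From TSW to CO in RPMI8226, however, the sum fell while the mean of CCND2 went from 72.3 to 73.3 and that of CCND3 from 19.9 to 15.5. CCND2 made up 93.2 ± 2.14% (SD) of the sum in MM.1S MONO, 95.7 ± 0.200% in TSW and 95.3 ± 0.391% in CO. In RPMI8226 it made up 83.0 ± 0.720% in MONO, 75.4 ± 0.516% in TSW and 79.0 ± 1.29% in CO. For CCND3 the share in RPMI8226 came to 9.78 ± 0.0237% in MONO, 20.7 ± 0.441% in TSW and 16.7 ± 0.856% in CO, at a level that was not called as changed. The order of the 3 cyclins was therefore CCND2, CCND3, CCND1 in every library. In RPMI8226 MONO the last 2 were closest, with an RPKM of 17.2 against 13.5 and 11.8. CCND1 took 7.22 ± 0.696% of the sum there, 3.85 ± 0.0753% in TSW and 4.27 ± 0.432% in CO. These shares are descriptions, for which no test was run.

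CDK4 (gene ID 1019, chr12:57747727-57752310) encodes a kinase that phosphorylates RB1 when bound to a D-type cyclin. Its RPKM in MM.1S was 102, 94.99 and 82.2 in MONO, 91.1, 82.2 and 78.5 in TSW, and 55.8, 87.8 and 75.1 in CO. RPMI8226 had 118 and 119.6 in MONO, 72.9 and 75.8 in TSW, and 46.3 and 47.9 in CO. The 3 groups overlapped in MM.1S, where CO replicate 1 was the lowest library, and they were separate and ordered MONO, TSW, CO in RPMI8226.

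The log2 fold change of CDK4 in MM.1S was -0.14 in TSW against MONO (SE 0.15, adjusted p 0.501) and -0.37 in CO against MONO (SE 0.15, adjusted p 0.0877). CO against TSW gave -0.22 (adjusted p 0.998). Against MONO the values were -0.076 and -0.30 without MONO replicate 1, and without CO replicate 1 the CO value was -0.19. In RPMI8226 CDK4 fell by 0.67 in TSW against MONO (SE 0.06, adjusted p 8.06e-06). It fell by 1.32 in CO against MONO (SE 0.06, adjusted p 4.76e-08). It also fell by 0.65 in CO against TSW (SE 0.06, adjusted p 0.000161). That last value was short of the fold of 1.5 with quantile normalization, at -0.57, and over all settings its adjusted p ranged from 2.48e-05 to 0.00782. CDK4 in RPMI8226 had a mean RPKM of 119 ± 1.103 in MONO, 74.4 ± 2.08 in TSW and 47.1 ± 1.18 in CO. Reads were counted without a stated strand, and TSPAN31, another gene of the tables, overlaps CDK4, so reads in the overlap cannot be assigned with certainty, and their share was not measured.

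CDK6 (gene ID 1021, chr7:92604921-92836573) encodes the other kinase of the D-type cyclins. In MM.1S libraries its RPKM was 10.1, 21.2 and 24.01 in MONO, 37.7, 39.996 and 43.0 in TSW, and 47.3, 36.3 and 43.6 in CO. In RPMI8226 the values were 39.4 and 41.1 in MONO, 52.2 and 46.6 in TSW, and 62.4 and 64.8 in CO. Every TSW and CO library was above every MONO library in both lines, TSW and CO overlapped in MM.1S, and MM.1S MONO replicate 1 was by far the lowest.

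CDK6 in MM.1S rose by 1.17 in TSW against MONO (SE 0.25, adjusted p 0.00574). It rose by 1.23 in CO against MONO (SE 0.25, adjusted p 0.00406). Without MONO replicate 1 the values were 0.80 (adjusted p 0.000288) and 0.87 (adjusted p 0.000172), still called. Between TSW and CO the value was 0.067 (SE 0.25, adjusted p 0.998). In RPMI8226 the log2 fold change of CDK6 was 0.29 in TSW against MONO (SE 0.08, adjusted p 0.00676), short of the fold of 1.5. It rose by 0.65 in CO against MONO (SE 0.08, adjusted p 2.4e-05). CO against TSW gave 0.36 (SE 0.08, adjusted p 0.00718), short of the fold of 1.5. In MM.1S CDK6 had a mean RPKM of 18.4 ± 7.37 in MONO, 40.2 ± 2.64 in TSW and 42.4 ± 5.62 in CO, with the widest spread in MONO.

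The study lists regions that lie away from promoters and gained accessibility in TSW against MONO. Its list keeps only expressed genes with multiple such regions. The listed regions, of MM.1S, number 850, for 232 genes. CDK6 and CCND2 are the 2 members among those genes, with 3 regions each, the fewest with which a gene could enter. Other members may have gained regions that are not listed. The 250-base centres of the CDK6 regions are shown because CDK6 RNA rose in the same comparison in MM.1S. They are read from GRCh38 on the plus strand and lie in introns of CDK6.
CDK6, chr7:92768904-92769153: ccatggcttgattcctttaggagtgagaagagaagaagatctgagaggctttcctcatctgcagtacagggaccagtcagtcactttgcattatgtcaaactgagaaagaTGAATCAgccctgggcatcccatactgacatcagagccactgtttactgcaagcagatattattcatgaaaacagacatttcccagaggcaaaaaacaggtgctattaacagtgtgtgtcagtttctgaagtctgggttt
CDK6, chr7:92763771-92764020: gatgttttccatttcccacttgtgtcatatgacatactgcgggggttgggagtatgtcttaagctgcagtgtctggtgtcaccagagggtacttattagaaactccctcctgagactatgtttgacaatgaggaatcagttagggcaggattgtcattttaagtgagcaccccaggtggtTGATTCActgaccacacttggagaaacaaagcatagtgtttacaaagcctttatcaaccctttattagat
CDK6, chr7:92635040-92635289: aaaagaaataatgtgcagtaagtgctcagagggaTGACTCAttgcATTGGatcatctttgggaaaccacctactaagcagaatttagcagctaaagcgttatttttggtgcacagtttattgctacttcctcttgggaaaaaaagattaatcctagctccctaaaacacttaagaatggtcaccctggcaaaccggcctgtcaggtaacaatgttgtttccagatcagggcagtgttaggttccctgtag
Capitals mark matches, on either strand, to a set of 7 motifs: the GC box GGGCGG, the CCAAT box CCAAT, AP-1 TGANTCA, STAT TTCNNNGAA, E2F TTTNNCGC, C/EBP TTGCNNAA and the MAF half-site TGCTGAC. Each CDK6 region holds 1 match to the AP-1 letters, as TGAATCA in the first, TGATTCA in the second and TGACTCA in the last. The N accepts any base, so TGANTCA is a looser pattern than TGACTCA or TGAGTCA. Of the CDK6 regions only the last holds either of those stricter runs. It also holds a CCAAT box on the minus strand, printed as ATTGG. The 3 CCND2 regions, not shown, hold 0 AP-1 matches and 1 GC box. Of the 850 listed regions 38.6% hold the looser AP-1 letters TGANTCA and 25.4% the CCAAT box, against 6.57% and 32.0% of 35116 promoters of the same length. Shares for the stricter runs were not counted. Promoters are a different class of sequence, since 42.6% of them hold a GC box and 6.94% of the listed regions do. Regions away from promoters that did not gain accessibility were not counted, so these shares do not set the listed regions apart. No 2 matches overlap in these 3 sequences. A match is a run of letters and not a measured site of binding.

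Of the summed RPKM of the 2 kinases, CDK6 made up 8.99, 18.3 and 22.6% in MM.1S MONO, 29.3, 32.7 and 35.4% in TSW, and 45.9, 29.2 and 36.7% in CO. In RPMI8226 it made up 25.0 and 25.6% in MONO, 41.7 and 38.1% in TSW, and 57.4 and 57.5% in CO. MONO was thus the lowest group in both lines, and CDK6 was the more abundant kinase in the RPMI8226 CO libraries alone. TSW and CO overlapped in MM.1S and were separate in RPMI8226, where CDK4 fell between them. The sum of both kinases was 111.5 ± 5.07 in MM.1S MONO, 124 ± 4.05 in TSW and 115 ± 10.9 in CO. In RPMI8226 it came to 159 ± 2.33 in MONO, 124 ± 1.90 in TSW and 111 ± 2.86 in CO.

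**Figure D2:**
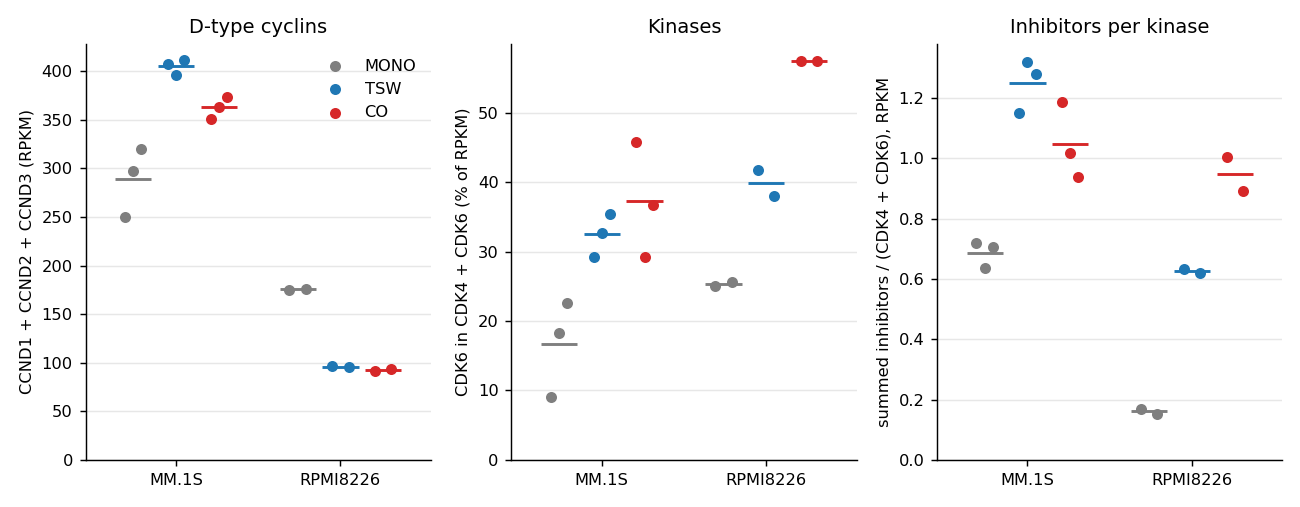
Points are single libraries of MM.1S and RPMI8226 by condition, and the panels show the summed RPKM of the D-type cyclins, CDK6 as a percent of CDK4 and CDK6, and the summed RPKM of the 4 inhibitors divided by that of the 2 kinases. The CDK6 percent runs from 8.99 in MM.1S MONO replicate 1 to 57.5 in RPMI8226 CO, and the inhibitor ratio from 0.152 to 1.32.

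CDKN1A (gene ID 1026, chr6:36676463-36687332) encodes p21, a CIP/KIP inhibitor. Its RPKM in MM.1S was 20.7, 20.6 and 16.9 in MONO, 92.2, 103 and 95.1 in TSW, and 51.9, 69.6 and 58.7 in CO. In RPMI8226 it was 4.31 and 4.99 in MONO, 22.3 and 21.7 in TSW, and 22.3 and 22.5 in CO. MONO was the lowest group in both lines with no overlap, and in MM.1S every TSW library was above every CO library.

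CDKN1A in MM.1S rose by 2.27 in TSW against MONO (SE 0.12, adjusted p 4.87e-07). It rose by 1.58 in CO against MONO (SE 0.12, adjusted p 5.54e-06). Without MONO replicate 1 these were 2.32 and 1.63. In mean RPKM CDKN1A of MM.1S went from 19.4 ± 2.19 in MONO to 96.9 ± 5.75 in TSW, 5.00 times as much, and to 60.1 ± 8.91 in CO, 3.10 times as much.

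From TSW to CO, CDKN1A fell by 0.69 in MM.1S (SE 0.12, adjusted p 0.0353), and was the only member called in that comparison. This call was lost without TSW replicate 1 (-0.72, adjusted p 0.121), TSW replicate 2 (-0.64, adjusted p 0.233), TSW replicate 3 (-0.70, adjusted p 0.149), CO replicate 1 (-0.59, adjusted p 0.213) or CO replicate 3 (-0.68, adjusted p 0.252). It was also lost with a minimum mean RPKM of 5, at an adjusted p of 0.0973. Over all settings the log2 difference of CDKN1A lay between -0.80 and -0.59 and its adjusted p between 0.00561 and 0.252. In RPMI8226 CDKN1A rose by 2.03 in TSW against MONO (SE 0.09, adjusted p 2.32e-08). It rose by 2.05 in CO against MONO (SE 0.09, adjusted p 1.61e-08). CO and TSW differed by 0.025 (SE 0.09, adjusted p 0.854). The mean RPKM there went from 4.65 ± 0.480 in MONO to 22.0 ± 0.393 in TSW and 22.4 ± 0.123 in CO, which is 4.72 and 4.81 times the MONO level.

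CDKN1B (gene ID 1027, chr12:12717368-12722369) encodes p27, the CIP/KIP inhibitor that accumulates in resting cells and is degraded through SKP2. In MM.1S libraries its RPKM was 55.6, 49.3 and 53.6 in MONO, 47.1, 48.5 and 52.5 in TSW, and 64.6, 48.6 and 44.6 in CO. In RPMI8226 it was 20.4 and 18.4 in MONO, 48.4 and 43.8 in TSW, and 77.3 and 68.2 in CO. The groups overlapped in MM.1S, and in RPMI8226 they were separate and ordered MONO, TSW, CO.

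In MM.1S the log2 fold change of CDKN1B was -0.10 in TSW against MONO (SE 0.13, adjusted p 0.604) and -0.023 in CO against MONO (adjusted p 0.901). Between TSW and CO the value was 0.073 (adjusted p 0.998). Those against MONO became -0.058 and 0.014 without MONO replicate 1, the latter in the other direction. In RPMI8226 CDKN1B rose by 1.21 in TSW against MONO (SE 0.09, adjusted p 1.09e-06). It rose by 1.85 in CO against MONO (SE 0.09, adjusted p 4.05e-08). It also rose by 0.65 in CO against TSW (SE 0.09, adjusted p 0.000935). The last call was lost without TSW replicate 2 (0.58, adjusted p 0.0114) or CO replicate 1 (0.56, adjusted p 0.024), where the fold was under 1.5, and its adjusted p ranged from 3.74e-05 to 0.024 over all settings. Mean RPKM of CDKN1B in RPMI8226 went from 19.4 ± 1.45 in MONO to 46.1 ± 3.22 in TSW and 72.7 ± 6.50 in CO. The RPMI8226 CO level was thus 3.75 times the MONO level.

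CDKN2C (gene ID 1031, chr1:50960745-50974634) encodes p18, an INK4 inhibitor that takes part in plasma cell differentiation and is deleted in part of MM. Its RPKM was 0 in all 6 MONO and TSW libraries of MM.1S and in all 4 of RPMI8226. In CO it was 0.226, 0.132 and 0.0876 in MM.1S and 0.148 and 0.150 in RPMI8226. Only the CO libraries held CDKN2C fragments, 9, 5 and 3 in MM.1S and 6 and 7 in RPMI8226.

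A library at 0 can hide a CDKN2C level of up to 3 fragments, which is an RPKM of 0.0635 to 0.134 in MM.1S MONO and of 0.0818 to 0.0970 in RPMI8226 MONO. Against that limit per library, CDKN2C was at least 1.54-fold higher in CO than in MONO in MM.1S and at least 1.67-fold higher in RPMI8226. Against TSW it was at least 1.73-fold higher in MM.1S and at least 2.25-fold higher in RPMI8226. In MM.1S CO replicate 3 CDKN2C was itself at the limit, with 3 fragments. The stromal genes COL1A2 and COL3A1 had the same pattern, at 0 in MONO and TSW and above 0 in CO, and their part in the CDKN2C level was not tested. CDKN2C had a mean RPKM under 1 in both lines and was below the filter of the tests. With no filter limma gave it a log2 difference of 0.20 between CO and MONO in each line (adjusted p 0.00722 in MM.1S and 0.000603 in RPMI8226). Between CO and TSW it was also 0.20 (adjusted p 0.0334 and 0.0085), and none of the 4 passed the fold of 1.5.

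**Figure D3:**
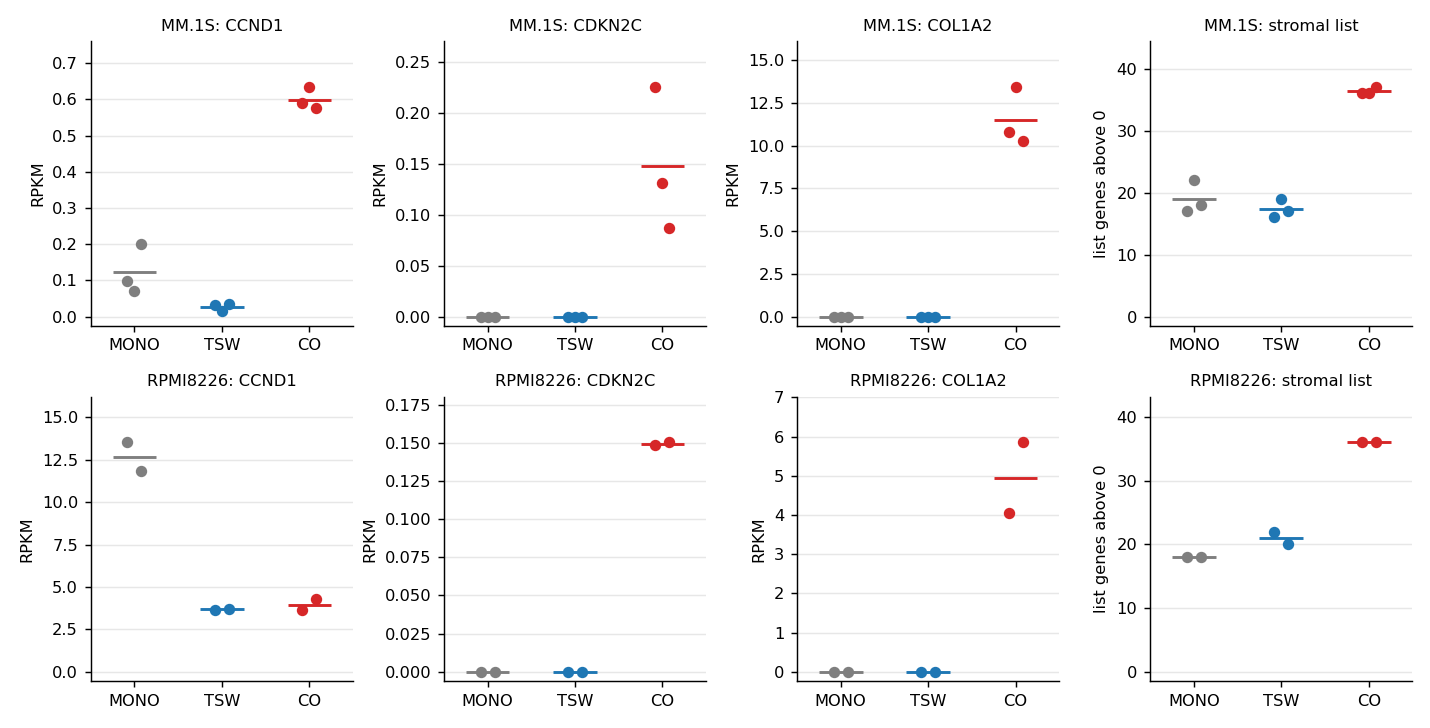
Each point is 1 library of MM.1S or RPMI8226 by condition, and the panels give the RPKM of CCND1, CDKN2C and COL1A2 and the number of 38 stromal list genes above 0. CDKN2C and COL1A2 are at 0 in every MONO and TSW library and above 0 in every CO library, where 36 or 37 stromal genes are above 0, while CCND1 of RPMI8226 is highest in MONO.

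CDKN2D (gene ID 1032, chr19:10566460-10568979) encodes p19, the other INK4 inhibitor followed here. Its RPKM in MM.1S was 4.45, 3.95 and 4.40 in MONO, 8.77, 9.43 and 7.87 in TSW, and 5.72, 7.79 and 7.93 in CO. In RPMI8226 it was 1.91 and 1.14 in MONO, 8.72 and 10.2 in TSW, and 9.39 and 9.65 in CO. MONO was the lowest group in both lines with no overlap, while TSW and CO overlapped in both.

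In MM.1S CDKN2D rose by 0.88 in TSW against MONO (SE 0.13, adjusted p 0.000535). It rose by 0.62 in CO against MONO (SE 0.13, adjusted p 0.00435). The CO call was lost with quantile normalization (0.53, adjusted p 0.0124) and without MONO replicate 2 (0.58, adjusted p 0.0166), CO replicate 2 (0.56, adjusted p 0.0206) or CO replicate 3 (0.55, adjusted p 0.0255), each time because the fold was under 1.5. Over all settings the CO value lay between 0.53 and 0.75 and its adjusted p between 0.00185 and 0.0255. Without MONO replicate 1 the 2 values of CDKN2D were 0.90 and 0.64. CO against TSW gave -0.26 (SE 0.13, adjusted p 0.998). In RPMI8226 CDKN2D rose by 2.06 in TSW against MONO (SE 0.14, adjusted p 5.97e-07). It rose by 2.07 in CO against MONO (SE 0.14, adjusted p 3.91e-07). Between TSW and CO the value was 0.012 (SE 0.14, adjusted p 0.957). Mean RPKM of CDKN2D in RPMI8226 rose from 1.53 ± 0.548 in MONO to 9.45 ± 1.04 in TSW and 9.52 ± 0.184 in CO.

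The promoter table used here, made from RefSeq (GRCh38.p14), holds 13 entries for 8 of the 10 members, and the promoters of CCND1 and CCND2 were not analysed here. Those of CDKN1A, CDKN1B and CDKN2D are shown because these 3 inhibitors rose together in RPMI8226 in TSW and in CO against MONO. Each is printed as bases before a transcript's start on the gene's strand, leaving out annotated exons.
CDKN1A, chr6:36678560-36678709, plus strand: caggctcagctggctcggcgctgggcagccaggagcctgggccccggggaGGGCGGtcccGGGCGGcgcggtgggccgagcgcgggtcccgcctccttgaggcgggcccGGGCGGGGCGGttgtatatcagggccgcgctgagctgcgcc
CDKN1B, chr12:12717118-12717367, plus strand: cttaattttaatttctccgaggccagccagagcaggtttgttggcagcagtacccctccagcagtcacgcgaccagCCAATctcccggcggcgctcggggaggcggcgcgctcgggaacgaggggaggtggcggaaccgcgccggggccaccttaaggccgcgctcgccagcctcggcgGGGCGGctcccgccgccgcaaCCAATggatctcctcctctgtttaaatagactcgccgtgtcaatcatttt
CDKN2D, chr19:10569060-10569229, minus strand: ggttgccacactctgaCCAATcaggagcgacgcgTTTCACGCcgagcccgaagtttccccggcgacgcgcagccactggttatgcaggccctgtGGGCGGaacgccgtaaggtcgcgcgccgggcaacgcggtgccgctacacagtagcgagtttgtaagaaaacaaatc
Capitals mark the same 7 motifs on either strand. CDKN1A holds 4 GC boxes, of which the last 2 overlap, and CDKN1B holds 1 GC box and 2 CCAAT boxes. CDKN2D holds 1 GC box, 1 CCAAT box and 1 match to the E2F letters in the bases shown, and 2 GC boxes in its whole window of 250 bases, while the counts for the other 2 are the same over the whole window. Of 35116 promoters, each taken as a whole window of 250 bases, 42.6% hold a GC box, 32.0% a CCAAT box and 5.92% the E2F letters. The GC box is therefore a common feature that the 3 promoters share with many others.

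The summed RPKM of the 4 inhibitors, divided by that of the 2 kinases, was 0.720, 0.635 and 0.705 in MM.1S MONO, 1.15, 1.32 and 1.28 in TSW, and 1.19, 1.02 and 0.937 in CO. In RPMI8226 the ratio was 0.169 and 0.152 in MONO, 0.634 and 0.619 in TSW, and 1.004 and 0.891 in CO. MONO was the lowest group in both lines, with TSW and CO overlapping in MM.1S and CO the highest in RPMI8226. With 3 more inhibitors of the G1/S list added (CDKN1C, CDKN2A and CDKN2B, chosen after seeing the data) the ratio in RPMI8226 was 0.292 and 0.278 in MONO, 0.759 and 0.752 in TSW and 1.15 and 1.03 in CO, in the same order, and in MM.1S the means moved by less than 1 SD. The addition in RPMI8226 was mostly CDKN2A, with a mean RPKM of 13.3 in MONO, 13.1 in TSW and 11.7 in CO. Among the 4 member inhibitors CDKN1B was the main source of RNA in MONO of both lines, at 69.1 ± 2.42% in MM.1S and 75.8 ± 1.18% in RPMI8226. Of all 7 inhibitors it made up 44.5 and 41.1% in the RPMI8226 MONO libraries. In MM.1S it made up 31.9 ± 1.84% in TSW and 43.8 ± 7.80% in CO, while CDKN1A went from 25.4 ± 2.69% in MONO to 62.5 ± 1.46% and 50.1 ± 6.78%. In RPMI8226 CDKN1B made up 59.4 ± 2.18% in TSW and 69.4 ± 2.10% in CO, and CDKN1A 18.3 ± 2.97% in MONO, 28.4 ± 0.432% in TSW and 21.4 ± 1.38% in CO. CDKN1A was thus the most abundant inhibitor in MM.1S TSW, and CDKN1B in every RPMI8226 library. In MM.1S CO the 2 overlapped, with CDKN1B above CDKN1A in replicate 1 and below it in replicates 2 and 3. CDKN2D supplied 4.67 to 7.12% of inhibitor RPKM in MM.1S libraries and 4.65 to 13.5% in RPMI8226 libraries.

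RB1 (gene ID 5925, chr13:48303751-48481890) encodes the pocket protein that holds E2F factors until it is phosphorylated. In MM.1S libraries its RPKM was 6.74, 10.1 and 12.2 in MONO, 11.9, 11.8 and 14.4 in TSW, and 13.5, 11.2 and 10.6 in CO. In RPMI8226 it was 18.7 and 16.5 in MONO, 35.5 and 28.9 in TSW, and 43.99 and 41.2 in CO. The groups overlapped in MM.1S, where MONO replicate 1 was the lowest library, and in RPMI8226 they were separate and ordered MONO, TSW, CO.

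The log2 fold change of RB1 in MM.1S was 0.39 in TSW against MONO (SE 0.18, adjusted p 0.125) and 0.28 in CO against MONO (SE 0.18, adjusted p 0.24), and without MONO replicate 1 these were 0.17 and 0.068. CO against TSW gave -0.11 (adjusted p 0.998). In RPMI8226 RB1 rose by 0.83 in TSW against MONO (SE 0.10, adjusted p 4.69e-05). It rose by 1.23 in CO against MONO (SE 0.10, adjusted p 1.95e-06). Between TSW and CO the value was 0.40 (SE 0.10, adjusted p 0.0175), short of the fold of 1.5, and 0.26 without TSW replicate 2. Mean RPKM of RB1 in RPMI8226 went from 17.6 ± 1.61 in MONO to 32.2 ± 4.62 in TSW and 42.6 ± 1.96 in CO. LPAR6, another gene of the tables, lies within RB1, and reads in the overlap cannot be assigned with certainty.

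**Figure D4:**
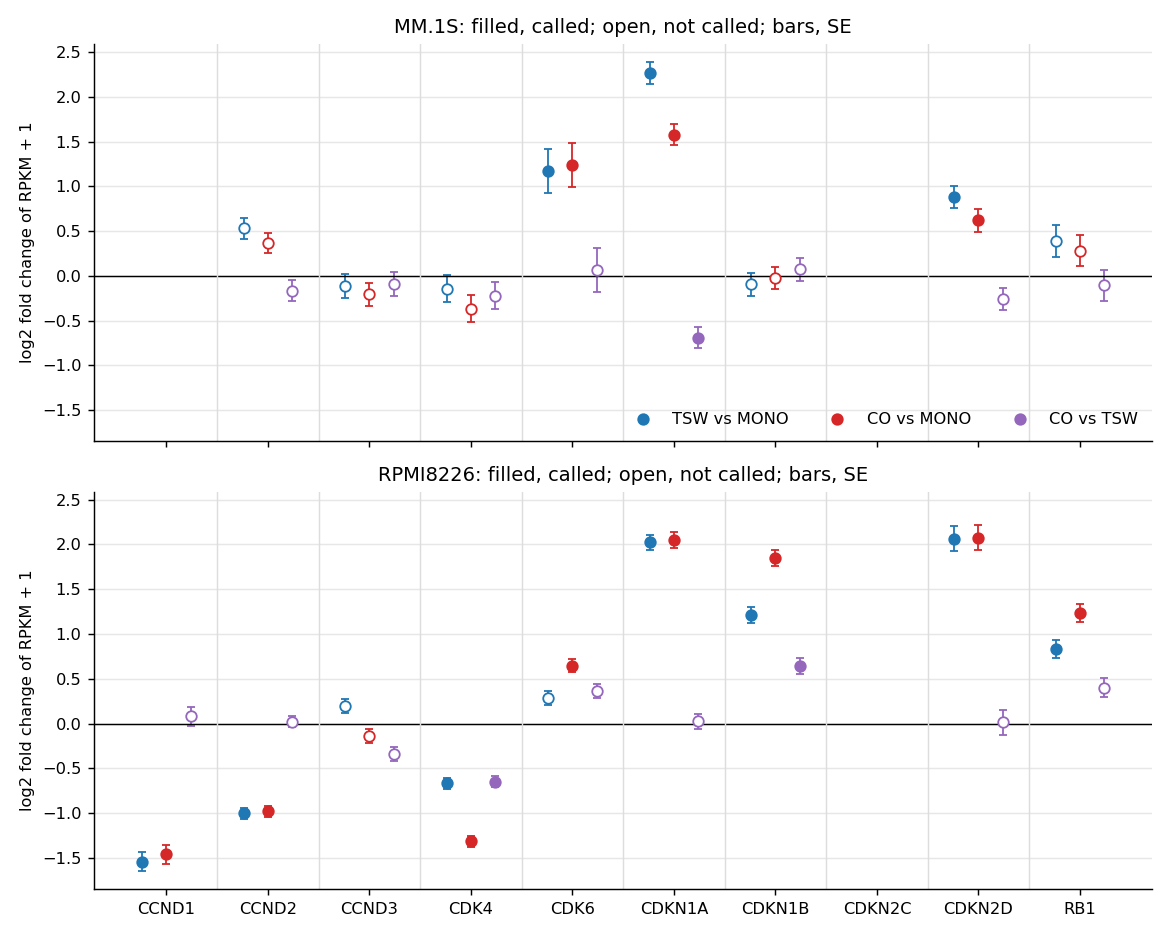
Points are limma log2 fold changes of log2(RPKM + 1) with bars of 1 SE for each tested member, by line, with TSW against MONO in blue, CO against MONO in red and CO against TSW in purple, and filled points for called genes. In RPMI8226 the inhibitors CDKN1A, CDKN1B and CDKN2D lie between 1.21 and 2.07 against MONO and the falling genes CCND1, CCND2 and CDK4 between -1.54 and -0.67.

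In MM.1S, 8 members were tested. TSW against MONO called 3 higher (CDK6, CDKN1A and CDKN2D), beside 6.48% of 10153 genes tested, and 0 lower by limma, beside 4.16%. At an unadjusted p under 0.05 also 0 members were lower, as with voom. CO against MONO called the same 3 members higher, beside 7.13% of genes, and 0 lower by limma, beside 4.65%, with 1 lower at an unadjusted p under 0.05 (CDK4) and 0 with voom. CO against TSW called 1 lower (CDKN1A), beside 0.0394% of genes, and 0 higher by limma, beside 0.374%, with 0 higher at an unadjusted p under 0.05 and 0 with voom. The median log2 fold change of the 8 was 0.46, 0.33 and -0.14 in the 3 comparisons, beside 0.014, 0.0053 and -0.0008 over all genes tested. Values of 4, 4 and 2 of the 8 members did not overlap between the groups compared, beside 4467, 4459 and 1650 of the 10153 genes tested. Without TSW replicates 1, 2 or 3 or CO replicates 1 or 3, or with a minimum mean RPKM of 5, the count of members lower in CO against TSW was 0 by limma, and with no filter 1 was higher (CCND1). Over all genes that comparison called 4 lower, which became 11 with only 2 conditions in the fit, 8 without MONO replicate 1, 7 without MONO replicate 2 and 2 with that minimum or without TSW replicates 1 or 2 or CO replicate 1, and 38 higher, which became 24 without CO replicate 2, 5 with that minimum and 128 with no filter. Stromal markers were among the 38 genes higher. Of the 20 tested in MM.1S, 17 had a mean RPKM under 1 in at least 1 condition. The share of 0.374% thus includes genes such as MMP1, at 0 in MONO and TSW, that passed the filter only through CO.

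In RPMI8226, 9 members were tested. TSW against MONO called 4 higher (CDKN1A, CDKN1B, CDKN2D and RB1), beside 14.5% of 10319 genes tested, and 3 lower (CCND1, CCND2 and CDK4), beside 17.9%. CO against MONO called those and CDK6, 5 higher beside 16.4% and 3 lower beside 22.9%. CO against TSW called 1 higher (CDKN1B), beside 1.90%, and 1 lower (CDK4), beside 2.39%. The median of the 9 was 0.29, 0.65 and 0.025, beside -0.079, -0.094 and -0.039 over all genes tested. Values of 9, 9 and 7 of the 9 members did not overlap between the groups compared, beside 82.9%, 87.0% and 65.3% of all genes tested, so with 2 libraries per group this does not set the members apart. Without TSW replicate 2 or CO replicate 1 the 1 higher in CO against TSW became 0, and with quantile normalization the 1 lower did. With no fold threshold they were 3 and 2. Over all genes that comparison called 196 higher, which became 388 without TSW replicate 1, 296 with a pseudocount of 0.1 and 321 with voom. Among all genes called in that comparison the share called higher was 44.2%, and 59% with quantile normalization. Under median-of-ratios scaling it went from 44.7% to 52.6% in TSW against MONO and from 41.7% to 50.9% in CO against MONO, and no call of a member changed.

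Whether a fold change differs between the lines was tested with an interaction contrast over all 15 libraries, as the RPMI8226 value minus the MM.1S value, for the 8 members whose mean RPKM reached 1 in each line. In TSW against MONO, 3 of 8 differed at an adjusted p under 0.05, beside 38.5% of 9397 genes tested, and 6 did without MM.1S MONO replicate 1 and 5 without MM.1S MONO replicate 3. In CO against MONO 6 of 8 differed, beside 44.5%. In CO against TSW limma found 0 of 8, beside 0.138%, with 2 at an unadjusted p under 0.05 (CDKN1A and CDKN1B), and no other tool was run on this contrast. The 13 genes that differed there became 95, 57 and 25 without MM.1S MONO replicates 1, 2 and 3, 7, 5 and 6 without MM.1S TSW replicates 1, 2 and 3, and 6 without MM.1S CO replicate 3. Without RPMI8226 TSW replicates 1 and 2 and CO replicate 1 they became 7, 0 and 8. CDKN1A differed there without MM.1S MONO replicate 1 (0.71, adjusted p 0.0434), against an adjusted p of 0.178 with all libraries and a range of 0.0434 to 0.668 over all settings. The median difference over all genes tested was -0.14 in CO against MONO and moved to -0.025 with median-of-ratios scaling, a shift of over 0.1. Among genes that differed in that comparison 35.8% were higher in RPMI8226, and 47.3% with that scaling. The differences given for members are therefore relative to such a shift, and none of the members that differed changed direction or lost its call under median-of-ratios or quantile scaling.

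CCND2 differed by -1.53 in TSW against MONO (SE 0.15, adjusted p 3.26e-06) and by -1.35 in CO against MONO (adjusted p 6.88e-06). Its fall was called in RPMI8226, while its positive values in MM.1S were short of the fold of 1.5 in the main fit. CDK4 differed by -0.95 in CO against MONO (SE 0.21, adjusted p 0.00193). In TSW against MONO CDK4 had -0.52 (adjusted p 0.0586), which passed the threshold without MM.1S MONO replicate 1 (-0.59, adjusted p 0.0247), without MM.1S CO replicate 1 (-0.52, adjusted p 0.0133) or CO replicate 2 (-0.52, adjusted p 0.0301), and with quantile normalization (-0.61, adjusted p 0.0144), in a range of 0.0133 to 0.142. CDK6 had -0.88 in TSW against MONO (SE 0.34, adjusted p 0.0536) and -0.59 in CO against MONO (adjusted p 0.178). The first passed the threshold without MM.1S MONO replicate 1 (-0.52, adjusted p 0.0102), replicate 2 (-1.02, adjusted p 0.031) or replicate 3 (-1.10, adjusted p 0.00991), in a range of 0.00991 to 0.155, and the second without MONO replicate 3 (-0.81, adjusted p 0.041), in a range of 0.041 to 0.309. The TSW difference of CDK6 thus missed the threshold with all libraries and passed with any 1 MM.1S MONO replicate left out. Its value then lay between -1.10 and -0.52. The CO difference passed only without MM.1S MONO replicate 3. CCND3 did not pass the threshold in either comparison (0.31, adjusted p 0.189, and 0.064, adjusted p 0.8), except in TSW against MONO without MM.1S MONO replicate 3 (0.46, adjusted p 0.0178, in a range of 0.0178 to 0.32). Without MM.1S MONO replicate 1 the CCND3 values were 0.19 and -0.061 and the CO value of CDK6 was -0.22.

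CDKN1B differed by 1.30 in TSW against MONO (SE 0.18, adjusted p 0.0001) and by 1.88 in CO against MONO (adjusted p 2.95e-06). CDKN2D differed by 1.18 (SE 0.21, adjusted p 0.000516) and by 1.46 (adjusted p 6.5e-05) in the same comparisons, on a scale that understates the change of genes with a low RPKM. For CDKN1A the TSW difference was -0.24 (SE 0.17, adjusted p 0.278), and the CO difference was 0.47 (SE 0.17, adjusted p 0.0345). That CO difference lost its call without MM.1S MONO replicate 2 (0.43, adjusted p 0.066), MM.1S CO replicate 1 (0.37, adjusted p 0.0747), MM.1S CO replicate 3 (0.46, adjusted p 0.0639), RPMI8226 MONO replicate 1 (0.39, adjusted p 0.145), RPMI8226 CO replicate 1 (0.48, adjusted p 0.084) or RPMI8226 CO replicate 2 (0.47, adjusted p 0.0887), in a range of 0.00888 to 0.145. RB1 differed by 0.95 in CO against MONO (SE 0.25, adjusted p 0.00754). In TSW against MONO RB1 had 0.44 (adjusted p 0.187), which passed the threshold without MM.1S MONO replicate 1 (0.66, adjusted p 0.00755, in a range of 0.00755 to 0.461). CDKN1B and CDKN2D thus had larger fold changes in RPMI8226 in both comparisons against MONO, and CDKN1A and RB1 in CO.

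**Figure D5:**
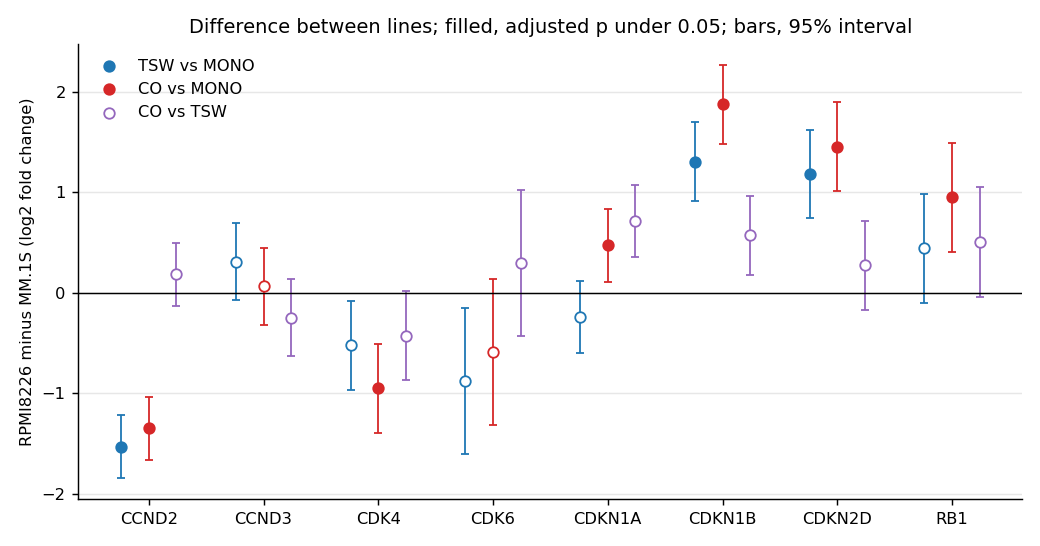
Each point is the limma difference between lines in a log2 fold change, RPMI8226 minus MM.1S, with its 95% interval, for the 8 members tested in both lines and the 3 comparisons, filled at an adjusted p under 0.05. CCND2 lies lowest at -1.53 and CDKN1B highest at 1.88, and no CO against TSW point is filled.

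For members called in MM.1S, the 3 tested genes with the highest Pearson r over the 9 MM.1S libraries were found on log2(RPKM + 1), as a description in which the 3 conditions make most of the spread. For CDK6 these were PTPN4 (0.998), G3BP2 (0.997) and STON2 (0.996), and over the 6 RPMI8226 libraries their r with CDK6 was 0.974, 0.141 and 0.914. For CDKN1A they were PHGDH (0.998), PYCR1 (0.997) and INHBE (0.996), with an r of 0.922, -0.469 and 0.979 in RPMI8226. INHBE had a mean RPKM in MONO of 0.398 in MM.1S and 0.402 in RPMI8226 and passed the filter through TSW and CO, where CDKN1A was also high, so the filter favoured a high r for it. For CDKN2D they were EIF1 (0.986), PLGRKT (0.984) and STAG3L4 (0.978), with 0.953, 0.856 and 0.961 in RPMI8226. The 9 genes were picked for a high r in MM.1S, so a lower r in RPMI8226 shows no difference between the lines.

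Of 24 G1/S partners of the members (CDK2 and its cyclins, other inhibitors, pocket proteins and E2F factors), 22 were tested in MM.1S and 24 in RPMI8226. The inhibitor CDKN1C passed the filter in MM.1S only through MONO, with a mean RPKM of 2.07 there, 0.940 in TSW and 0.840 in CO, and the inhibitor CDKN2B passed in RPMI8226 only through TSW and CO, with 0.978 in MONO, 1.78 in TSW and 2.57 in CO. Calls of these 2 genes follow in part from the filter, so counts are given over the other 21 and 23, a choice made after seeing the data, beside all genes that reach a mean RPKM of 1 in every condition. In MM.1S limma called 0 of 21 in TSW against MONO, where 2 were higher and 6 lower at an unadjusted p under 0.05 and 0 were called with voom, and the 0 was 2 lower without MONO replicate 3 and 1 lower without TSW replicate 1. In CO against MONO it called 2 lower, beside 4.51% of all genes so counted, and 0 higher (2 at an unadjusted p under 0.05 and 0 with voom). CO against TSW called 0 by limma, 0 at an unadjusted p under 0.05 and 0 with voom, and the medians were -0.014, 0.036 and -0.010. The 2 lower in CO were E2F1, which fell by 0.75 from a mean RPKM of 39.9 to 23.0, and CDC25A, which fell by 0.63 from 29.5 to 18.8. Without MONO replicate 1 neither was called (falls of 0.58 and 0.58) and 1 other partner was, and without CO replicate 1 CDC25A was not called (0.53), so that each count was 1. In RPMI8226 TSW against MONO called 1 of 23 higher and 6 lower, beside 13.4% and 17.7% of all genes so counted, CO against MONO 1 higher and 10 lower, beside 15% and 22.9%, and CO against TSW 1 lower, beside 2.36%. The list had medians of -0.44, -0.36 and -0.024. The 1 higher in TSW was CCNH, a cyclin of the kinase that activates CDKs, which rose by 0.62 and was not called without MONO replicate 2 (0.57) or TSW replicate 1 (0.51). The 1 higher in CO was the pocket protein gene RBL2, which rose by 0.75 and was also called in TSW with quantile or median-of-ratios scaling (0.59 and 0.60). The 1 lower in CO against TSW was CDC25A, and the count was 2 without TSW replicate 1, with a pseudocount of 0.1 or with voom, and 0 without TSW replicate 2 or with either scaling. CDC25A, a phosphatase that activates CDK2, fell from a mean RPKM of 29.7 in MONO to 8.87 in TSW and 5.55 in CO there. CCNE1, the cyclin E1 partner of CDK2, fell from 13.2 to 4.72 and 3.65. The inhibitor CDKN1C also fell in RPMI8226, from a mean RPKM of 5.44 in MONO to 1.08 in TSW and 1.03 in CO. Its falls of 1.64 and 1.67 against MONO were both called, while the member inhibitors CDKN1A, CDKN1B and CDKN2D rose there.

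Of 14 genes of D-type cyclin and inhibitor turnover, all tested in both lines, limma called 0 in MM.1S in TSW against MONO (3 at an unadjusted p under 0.05 and 1 with voom). Of all genes tested 6.48% were higher and 4.16% lower there. In CO against MONO it called 1 lower, beside 4.65% of all genes, and 0 higher, beside 7.13%. In CO against TSW it called 0 (1 at an unadjusted p under 0.05 and 0 with voom), beside 0.374% higher and 0.0394% lower. The medians were -0.028, -0.060 and -0.037, and the count in TSW was 1 without MONO replicate 1 or with a pseudocount of 0.1 or quantile normalization and that in CO 2 without MONO replicate 3 or CO replicate 2. SKP2, which marks CDKN1B protein for degradation, fell by 0.66 in MM.1S CO against MONO, from a mean RPKM of 14.8 to 8.98. In RPMI8226 TSW and CO against MONO each called 3 lower, beside 17.9% and 22.9% of all genes tested, and CO against TSW called 0 (4 at an unadjusted p under 0.05 and 0 with voom), with medians of -0.15, -0.26 and -0.066. In CO against MONO 1 gene was higher without CO replicate 2 or with a pseudocount of 0.1, voom, quantile or median-of-ratios scaling, and in TSW 1 was higher with that pseudocount or voom. SKP2 RNA fell there from 13.5 in MONO to 3.28 in TSW and 2.83 in CO, while CDKN1B RNA rose. No protein was measured, and a link between these RNA changes was not tested. CKS1B, a cofactor of SKP2, fell by 0.74 in TSW (0.51 and not called without TSW replicate 2) and by 0.79 in CO against MONO. FBXO4 alone of the 14 had a mean RPKM under 1 in some condition of RPMI8226 (0.970 in MONO and 0.989 in CO), and without it the counts were the same and the medians -0.21, -0.27 and -0.064.

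Of 28 E2F target genes, all tested in both lines, MM.1S had 4 lower in TSW and 8 lower in CO against MONO, beside 4.16% and 4.65% of all genes tested, and CO against TSW called 0 by limma (2 at an unadjusted p under 0.05 and 0 with voom). The medians were -0.31, -0.47 and -0.13, and the counts were 7 in TSW without MONO replicate 3 and 5 in CO without CO replicate 1. With quantile normalization they were 2 and 4. RPMI8226 had 25 lower in TSW, 26 in CO against MONO and 7 in CO against TSW, beside 17.9%, 22.9% and 2.39% of all genes, with medians of -0.92, -1.42 and -0.47. The 7 became 11 without TSW replicate 1, with a pseudocount of 0.1 or with voom, 3 without TSW replicate 2 or with quantile normalization, and 4 with median-of-ratios scaling. UHRF1 fell in both comparisons against MONO in both lines, by 1.12 and 1.13 in MM.1S and by 2.32 and 2.54 in RPMI8226. GINS2 in RPMI8226 fell from a mean RPKM of 51.7 in MONO to 14.0 in TSW and 7.22 in CO.

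Of 21 regulators of transcription of the members, 20 were tested in MM.1S, with 6 higher and 1 lower in TSW, 7 higher and 1 lower in CO against MONO (beside 6.48% and 4.16%, and 7.13% and 4.65%, of all genes tested), and 0 in CO against TSW by limma (1 at an unadjusted p under 0.05 and 0 with voom). The medians were 0.25, 0.18 and 0.041. In RPMI8226, with 19 tested, TSW against MONO called 8 higher and 2 lower, CO against MONO 11 higher and 2 lower (beside 14.5% and 17.9%, and 16.4% and 22.9%), and CO against TSW 0 by limma (8 at an unadjusted p under 0.05 and 1 with voom, with a pseudocount of 0.1 or with either scaling). The medians there were 0.41, 0.68 and 0.043. JUNB rose by 2.28 in TSW and 2.15 in CO in MM.1S and by 2.93 and 2.94 in RPMI8226. MAF rose by 1.06 in TSW and 1.36 in CO against MONO in MM.1S, and in RPMI8226 by 0.71 in CO, with 0.37 in TSW (adjusted p 0.00148), short of the fold of 1.5. Whether MAF or another regulator acts on a member was not tested. MYC in RPMI8226 fell from a mean RPKM of 384 in MONO to 159 in TSW and 132 in CO.

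Of the 38 stromal markers 20 passed the filter in MM.1S and 17 in RPMI8226, and 17 and 12 of these had a mean RPKM under 1 in at least 1 condition, so that they passed through the others. Counts of called stromal markers and their median would follow from that choice and are not given as results of that list. BCL6, the only 1 of 5 B cell markers to pass, had a mean RPKM of 0.167 in MONO in MM.1S and 0.0870 in RPMI8226 and passed through TSW and CO, so no count is given for that list either. Of 12 plasma cell markers 10 were tested in MM.1S, with 3 higher and 2 lower in TSW, 2 higher and 2 lower in CO against MONO (beside 6.48% and 4.16%, and 7.13% and 4.65%, of all genes tested) and 0 in CO against TSW by limma (4 at an unadjusted p under 0.05 and 0 with voom), and medians of -0.066, 0.049 and -0.13. The 2 higher in CO was 1 without MONO replicate 1. In RPMI8226, with 9 tested, TSW and CO against MONO each called 6 higher and 2 lower (beside 14.5% and 17.9%, and 16.4% and 22.9%) and CO against TSW 0 by limma (7 at an unadjusted p under 0.05 and 0 with voom), with medians of 0.94, 1.01 and -0.071. TNFRSF17, which encodes the surface receptor BCMA, fell the most in both lines, by 1.80 in TSW and 2.14 in CO against MONO in MM.1S (mean RPKM 173, 48.2 and 37.9 in the 3 conditions) and by 3.50 and 3.83 in RPMI8226 (70.9, 5.42 and 4.05). The other called falls were of JCHAIN in MM.1S, by 0.85 and 0.91, and of IRF4 in RPMI8226, by 0.94 and 0.93. XBP1 rose the most in MM.1S, by 0.87 and 0.77, followed by PRDM1, by 0.75 and 0.68 (0.53 in CO and not called without MONO replicate 1), and POU2AF1 rose by 0.73 in TSW. In RPMI8226 CD38 rose the most, by 1.46 and 1.67, and XBP1 rose by 1.24 and 1.08, with POU2AF1 the third in TSW (1.08) and PRDM1 the second in CO (1.12). The plasma cell markers thus moved in both directions in each line, and their part in the changes of the members was not tested.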

How the data were processed

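RNA-Seq values of 15 libraries were read from 2 tables, in which the deposited unit is log2: the authors aligned paired reads to hg38 with Subread, counted them per gene with featureCounts and made RPKM, and each value is log2 of RPKM plus 1 with 0.0001 added. The design assumed RPKM, and the values were turned back into it. Fragment counts follow from the steps between RPKM values of a gene and were whole within 0.02 for 99.998% of values, with SERPINB2 left out. Genes whose mean RPKM over a line reached 1 were tested with limma 3.58.1 in R 4.3.3 (3 conditions of a line in 1 fit, eBayes with a trend, Benjamini-Hochberg). Summaries used Python 3.11.15, numpy 2.4.6, pandas 2.3.3, scipy 1.17.1 and matplotlib 3.10.9. Members and the 7 lists (G1/S partners, turnover, E2F targets, regulators, stromal, plasma cell and B cell markers) were chosen with earlier results of these data known. Named genes were all members, up to 3 called genes with the largest rise and 3 with the largest fall per list and comparison, the most abundant stromal and B cell marker, and the 3 genes most alike to each member called in MM.1S; COL1A2, COL3A1, THY1, POSTN, MS4A1 and CD38 were named after their values were seen, some as defining markers. Alternatives were another pseudocount, filters, scalings, a replicate block, 2 conditions per fit, no trend, voom, no fold threshold and each library left out. Genome positions and promoters came from RefSeq, and the listed regions from a supplementary table of the study.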

Additional observations from a re-analysis of the deposited data

Results flagged for a closer look

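These results are those in which a fold change differed between RPMI8226 and MM.1S, by the interaction contrast of limma at an adjusted p under 0.05, given as RPMI8226 minus MM.1S. CCND2 differed by -1.53 in TSW against MONO and by -1.35 in CO against MONO, where its log2 fold change was 0.37 in MM.1S and -0.98 in RPMI8226. CDK4 differed by -0.95 in CO against MONO. CDKN1A differed by 0.47 in CO against MONO, a call that was lost without any 1 of 6 libraries (adjusted p 0.0639 to 0.145, in a range of 0.00888 to 0.145 over all settings). CDKN1B differed by 1.3 in TSW against MONO and by 1.88 in CO against MONO, where its log2 fold change was -0.023 in MM.1S and 1.85 in RPMI8226. CDKN2D differed by 1.18 and by 1.46 in the same comparisons, and RB1 by 0.95 in CO against MONO. In TSW against MONO 3 of 8 members differed, beside 38.5% of all genes tested, and in CO against MONO 6 of 8, beside 44.5%. CCND1 and CDKN2C were below the filter in 1 or both lines, so they could not appear here.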

How the results depend on the processing

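Log2 fold changes of single members kept their direction wherever they were called, and kept their side of the threshold in 207 of the MM.1S values and 160 of the RPMI8226 values with 1 library left out, with 9 and 2 that did not, and in 213 and 242 values under the other alternatives, with 3 and 1 that did not. For the difference between lines 344 values with 1 library left out kept their side and 16 did not, and 119 kept it under the other alternatives and 1 did not. Counts over the lists moved by more than 1.5 times, or to or from 0, in 47 values and did not in 1003. For the composition, 3 alternatives were chosen after seeing the data, as was leaving out libraries for the difference between lines. With quantile normalization the CCND2 share and the ratio of inhibitors to kinases moved by less than 1 SD of their group, the largest change being 2.78% of the ratio in MM.1S MONO. With a library left out a mean of 2 or 3 libraries cannot move by 1 SD, so that rule tests nothing there. The largest changes were 1.21% of the CCND2 share in MM.1S MONO and 6.70% of the ratio in MM.1S CO, which ranged from 0.977 to 1.102. With CDKN1C, CDKN2A and CDKN2B added to the inhibitors the RPMI8226 ratios became 0.285, 0.756 and 1.09 for MONO, TSW and CO (0.161, 0.626 and 0.948 without them), higher by construction. With 1 of the RPMI8226 libraries removed, its condition has 1 replicate and borrows its variance from the other groups. The labels do not say whether libraries of like number share a well or a culture, and replicates were not treated as pairs: the correlation of residuals between libraries of like number was -0.38 to 0.286 in MM.1S and 0.164 to 0.271 in RPMI8226, with 2 pairs. CCND1 in MM.1S and CDKN2C in both lines rest on few fragments and were below the filter. Uncalled values near 0 often moved by over 1.5 times or turned when a library was left out, and no called value of a member did. The causes of the changes below were not tested, except that dropping the fold threshold adds genes and a stricter filter tests fewer.

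With no fold threshold MM.1S had 1459 genes higher and 1310 lower in TSW against MONO (658 and 422 with it) and 1647 and 1528 in CO against MONO (724 and 472), and RPMI8226 had 2996 and 3925 (1500 and 1852), and 3123 and 4299 (1693 and 2363). In CO against TSW RPMI8226 had 1045 and 1804 genes (196 and 247), with 3 members higher and 2 lower (1 and 1).

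In this section counts of G1/S partners cover all 22 tested in MM.1S and all 24 in RPMI8226. They thus include CDKN1C in MM.1S and CDKN2B in RPMI8226, except where a minimum in each condition is named. With a mean RPKM of at least 5 MM.1S had 0 G1/S partners lower in TSW against MONO (1) and in CO against MONO 479 genes higher (724). In CO against TSW it had 0 members lower (1) and 5 genes higher and 2 lower (38 and 4). RPMI8226 had 1 G1/S partner higher in CO against MONO (2). With list genes counted only where the mean RPKM was at least 1 in each condition, chosen after seeing the data, MM.1S had 0 G1/S partners lower in TSW against MONO (1), by limma and by voom, with 6 at an unadjusted p under 0.05, and RPMI8226 had 1 higher in CO against MONO (2). With no filter MM.1S had 1 member (CCND1) higher in CO against TSW (0) and 128 genes higher (38).

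With only 2 conditions in the fit MM.1S had 11 genes lower in CO against TSW (4). With the replicate block 7 genes differed between the lines in CO against TSW (13).

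With a pseudocount of 0.1, and also with voom, MM.1S had 1 turnover gene lower in TSW against MONO (0). RPMI8226 had under both 2 G1/S partners higher (1) and 1 turnover gene higher (0) in TSW against MONO and 1 turnover gene higher in CO against MONO (0). In CO against TSW it had 296 genes higher with the pseudocount and 321 with voom (196), and under both 2 G1/S partners lower (1), 11 E2F targets lower (7) and 1 regulator higher (0).

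With quantile normalization MM.1S had 1 turnover gene lower (0) and 2 E2F targets lower (4) in TSW against MONO, and 4 E2F targets lower in CO against MONO (8). RPMI8226 had 2 G1/S partners higher in TSW against MONO (1) and 1 turnover gene higher in CO against MONO (0), with 0 members (1), 0 G1/S partners (1) and 3 E2F targets (7) lower and 1 regulator higher (0) in CO against TSW. With median-of-ratios scaling RPMI8226 had 2 G1/S partners higher in TSW against MONO (1), 1 turnover gene higher in CO against MONO (0), and 0 G1/S partners lower (1), 4 E2F targets lower (7) and 1 regulator higher (0) in CO against TSW.

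With each library left out in turn, counts in MM.1S TSW against MONO ranged from 0 to 1 for turnover genes lower, 3 to 7 for E2F targets lower and 0 to 3 for G1/S partners lower. In CO against MONO they ranged from 1 to 2 for turnover genes lower, 5 to 11 for E2F targets lower and 1 to 2 for plasma cell markers higher. In CO against TSW they ranged from 24 to 45 for genes higher, 2 to 8 for genes lower and 0 to 1 for members lower. In RPMI8226 TSW against MONO they ranged from 0 to 1 for G1/S partners higher, and in CO against MONO from 0 to 1 for turnover genes higher. In RPMI8226 CO against TSW they ranged from 3 to 11 for E2F targets lower, 0 to 2 for G1/S partners lower, 137 to 388 for genes higher and 0 to 1 for members higher. For the difference between lines they ranged from 3 to 6 members in TSW against MONO, and from 0 to 1 members and 0 to 95 genes in CO against TSW.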
